A study of Mus musculus with 4 samples.

Results

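The genes described here are 45 components of the MLL/COMPASS complexes, the super elongation and DOT1L complexes, the PAF complex and the Polycomb complexes. They were chosen by gene symbol and by no threshold on measured values, and all 45 were among the 14323 genes of the deposited table. They fall into 14 MLL/COMPASS genes, 14 genes of super elongation and DOT1L, 5 PAF complex genes and 12 Polycomb genes. A mean of at least 1 normalized count over the 4 libraries was required for a comparison, which 44 of the 45 members and 11370 genes in all reached. The member left out, Eaf2, an ELL-associated factor, had 6, 7, 11 and 6 reads in the libraries.

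MLL, the protein of Kmt2a, is a histone methyltransferase that marks active genes with methyl groups on lysine 4 of histone H3. COMPASS complexes build on MLL or a related enzyme together with shared subunits. In leukaemia MLL is fused to partners such as ENL, the protein of Mllt1, which bring the super elongation complex and the H3K79 methyltransferase DOT1L to MLL target genes and keep them transcribed. The PAF complex travels with RNA polymerase II and helps to anchor MLL at its targets. Polycomb complexes silence developmental genes by methylating H3K27 (PRC2) and ubiquitinating H2A (PRC1), and so work against MLL at the same genes in blood stem cells.

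RNA was sequenced from colonies of C57BL/6 background, grown from short-term haematopoietic stem cells (ST-HSCs) or from MPP2 cells, multipotent progenitors biased to megakaryocytes and erythroid cells. In each case 100 cells were plated for 5 to 7 days in 1% methylcellulose, and the medium contained the cytokines GM-CSF, IL-3, IL-6 and SCF. 4-Hydroxytamoxifen (4OHT) at 0.05 µM was in the medium of the colonies whose labels state conditional expression of MLL-ENL, and ethanol alone to those marked control, so that the labels compare induced cells of either type with their own control. The cells of all 4 groups came from the study's model mouse, whose construct, promoter, recombinase, age and sex were not given in the sources used here. An effect of 4OHT itself and one of the fusion cannot be told apart, since no 4OHT library without the fusion was analysed here. Each group had 1 library, so differences between 2 libraries carry no test, and the p-values below come from 1 additive fit with 1 residual degree of freedom. Depth was 12907412 to 14317891 recovered reads per library, and 1 read was worth 0.0695 to 0.0802 normalized counts.

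The colonies expressed myeloid genes. In sum over each list, 8 neutrophil genes had 30740 and 22629 normalized counts in ST-HSC colonies (ethanol, then 4OHT), with all 8 lower with 4OHT, and 42962 and 41760 in MPP2 colonies, with 5 of 8 higher. The 9 stem and progenitor genes summed to 139 and 210, and to 174 and 178. Of these, the receptor gene Kit lay at 76.4 to 92.9 normalized counts and Ly6a at 24.7 to 61.4. With 4OHT in ST-HSC colonies 3 of the 7 compared, Ly6a, Cd34 and Procr, were at least 2-fold higher, against 2.1% of all tested genes. Hlf was lower there, with a 4OHT to ethanol ratio of 0.643. In MPP2 colonies 0 of the 7 were 2-fold higher, and 4 were above and 3 below 0. Cd34 and Cd48 were among the lower ones, with ratios of 0.849 and 0.562. The HSC regulator Mecom lay at 0.0695 to 0.431 normalized counts, and Slamf1, a marker of MPP2 cells, was at 0 reads in both ST-HSC libraries and at 3.17 and 2.49 in the MPP2 libraries. Summed mast cell and basophil markers were 165 and 88.5 normalized counts in ST-HSC colonies (ethanol, then 4OHT), and 1790 and 582 in MPP2 colonies. All 9 of them were lower with 4OHT in both cell types. Summed erythroid markers were 2.85 and 1.87 in ST-HSC colonies, where 3 and 2 of the 8 were at 0 reads, and 104 and 18.6 in MPP2 colonies, where 0 and 1 were at 0 reads. Megakaryocyte markers summed to 20.9 and 26.4 in ST-HSC colonies and 330 and 350 in MPP2 colonies. Monocyte and macrophage markers summed to 1443 and 2724 in ST-HSC colonies and to 2286 and 4109 in MPP2 colonies, and all 8 that were compared were higher with 4OHT in both. Proliferation genes summed to 3368 and 2791, and to 3142 and 2875. The part of this makeup in the differences below was not tested, and in such bulk samples fewer cells of a type and less RNA per cell cannot be told apart.

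The promoters of a few members are shown first. Mllt3, Suz12 and Aff4 were chosen because they were lower with 4OHT in both cell types, and Dot1l as the methyltransferase that ENL recruits, with small differences in the other direction. Each is the 250 bases upstream of the annotated gene start in RefSeq (GRCm38.p6), printed 5′ to 3′ on the gene's strand. Mllt3 is at chr4:88033408-88033657 on the minus strand, Suz12 at chr11:79992856-79993105 on the plus strand, Aff4 at chr11:53350517-53350766 on the plus strand and Dot1l at chr10:80754953-80755202 on the plus strand. Capitals mark matches on either strand to CCAAT, to the Sp/KLF box GGGCGG and to the E2F words TTTCCCGC, TTTCGCGC, TTTGCCGC and TTTGGCGC. The search also covered the ETS word CCGGAAGT, the NRF1 motif and the cyclic AMP element TGACGTCA, which do not occur in these 4.
Mllt3: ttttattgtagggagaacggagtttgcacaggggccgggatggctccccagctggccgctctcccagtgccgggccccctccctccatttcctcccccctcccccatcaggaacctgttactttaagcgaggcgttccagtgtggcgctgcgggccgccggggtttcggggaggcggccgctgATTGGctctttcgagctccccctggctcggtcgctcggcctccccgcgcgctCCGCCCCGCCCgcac
Suz12: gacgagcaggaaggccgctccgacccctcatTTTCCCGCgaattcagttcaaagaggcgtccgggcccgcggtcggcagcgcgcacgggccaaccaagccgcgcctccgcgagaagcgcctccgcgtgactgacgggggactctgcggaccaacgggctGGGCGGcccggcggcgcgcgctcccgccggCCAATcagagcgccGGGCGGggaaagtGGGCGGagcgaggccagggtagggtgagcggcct
Aff4: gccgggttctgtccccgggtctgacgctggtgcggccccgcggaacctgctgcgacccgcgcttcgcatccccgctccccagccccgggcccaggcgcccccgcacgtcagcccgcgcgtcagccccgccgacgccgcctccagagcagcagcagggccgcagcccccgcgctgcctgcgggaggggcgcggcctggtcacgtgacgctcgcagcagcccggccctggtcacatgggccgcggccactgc
Dot1l: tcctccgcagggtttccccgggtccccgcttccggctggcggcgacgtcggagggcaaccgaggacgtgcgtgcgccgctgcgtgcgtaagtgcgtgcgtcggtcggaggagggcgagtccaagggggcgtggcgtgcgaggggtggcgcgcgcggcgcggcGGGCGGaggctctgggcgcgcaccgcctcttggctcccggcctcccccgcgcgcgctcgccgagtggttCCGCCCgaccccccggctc

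Of the 45 members, 38 had a promoter entry. GGGCGG occurred in 27 of these 38, against 32.7% of 32851 promoters of the same length, and CCAAT in 17 of 38 against 33.8%. Each member had 1 start, while the 32851 were all entries, not limited to 1 start per gene or to the genes tested here. The 2 sets are therefore unlike, and enrichment in members was not tested. Member promoters were rich in G and C, with a median of 65.4% against 52.4% for all promoters. An E2F word was found in 1 of 38 member promoters, that of Suz12, and in 1.86% of all promoters. The ETS word was found in 3 members against 2.88% of promoters, the NRF1 motif in 3 against 3.74% and the cyclic AMP element in 2 against 1.55%. No word searched occurred in the Aff4 window. These matches describe the letters only.

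The 4OHT differences were small for nearly all members. In ST-HSC colonies 1 member, Mllt6, was at least 1.5-fold higher, against 5.28% of all tested genes, and 1 member, Mllt3, was at least 1.5-fold lower, against 2.89%. In MPP2 colonies 0 members were at least 1.5-fold higher, against 4.67% of all genes, and 3 were lower, Psip1, Mllt3 and Suz12, against 6.09%. The shares of members past 1.5-fold in either direction, 4.55% and 6.82%, lay below those of all genes, 8.17% and 10.8%. No member reached 2-fold with 4OHT, while 2.65% and 3.02% of all genes did. The SD of the members' log2 differences was 0.23 in ST-HSC and 0.32 in MPP2 colonies, against 0.38 and 0.41 over all genes. Median log2 differences were -0.08 and -0.03 over members and -0.004 and -0.002 over all genes.

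**Figure D1:**
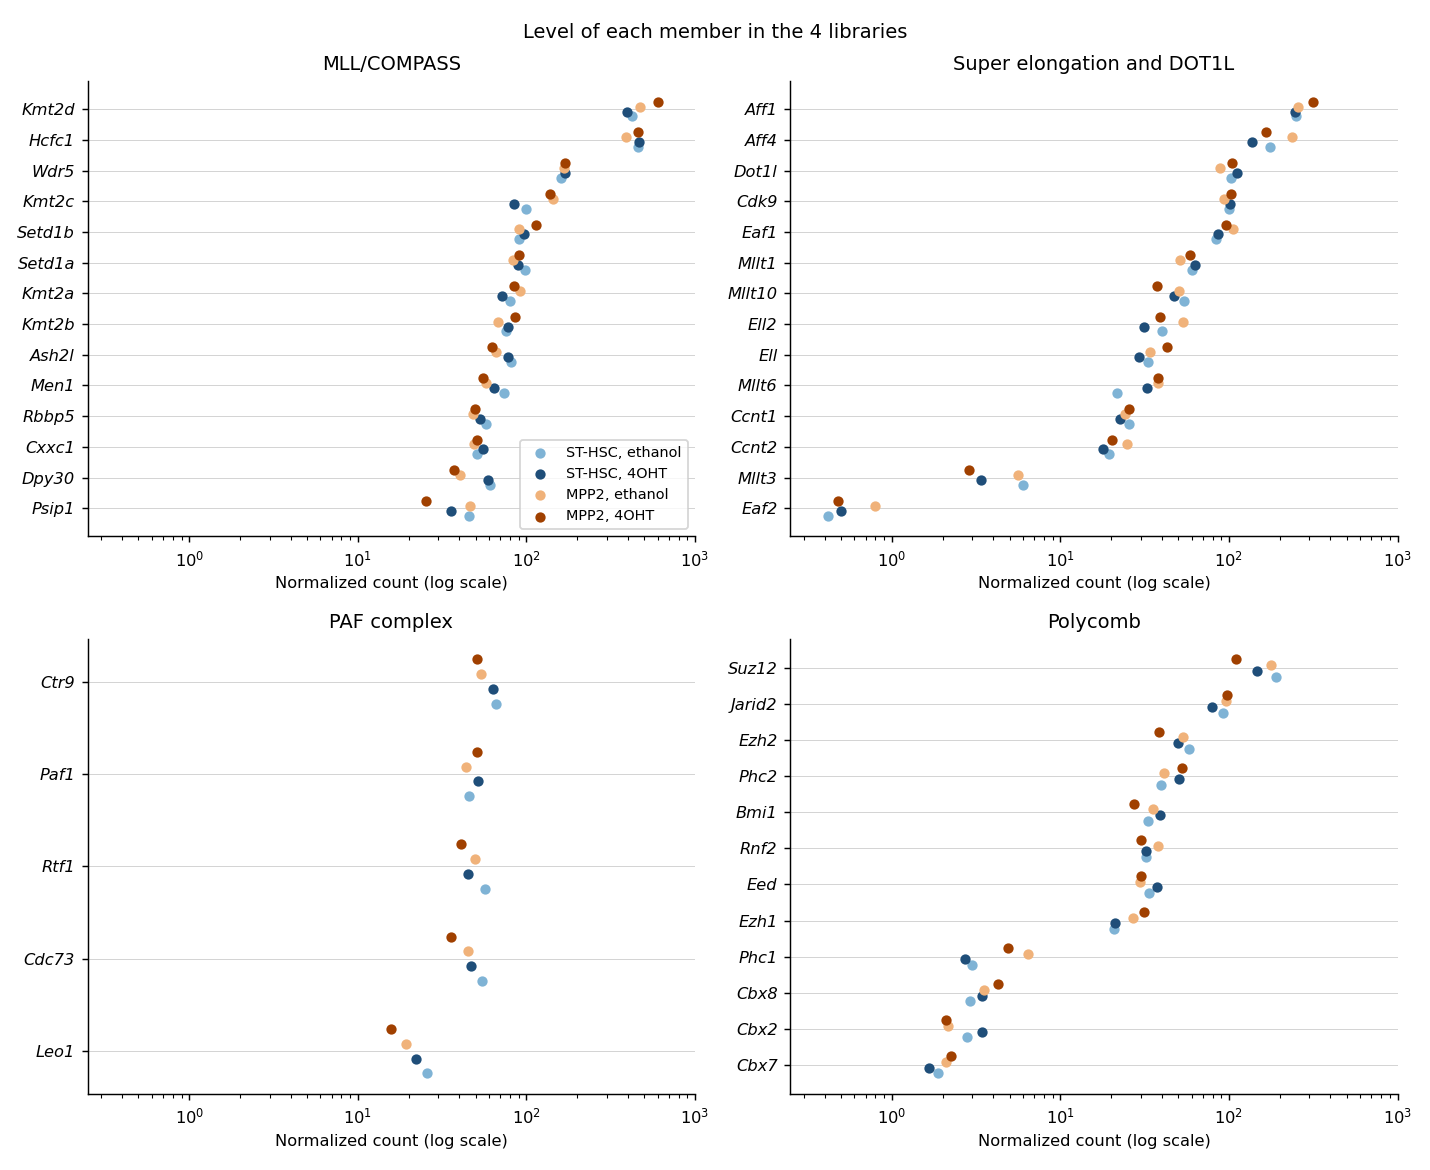
Normalized counts (x axis, log scale) of all 45 members, 1 panel per group of complexes and 1 row per gene, with 1 point per library (blue for ST-HSC and orange for MPP2 colonies, light for ethanol and dark for 4OHT). Most points of a gene lie close together, while the dark points of Mllt3 lie left of its light points in both cell types and the dark MPP2 point of Psip1 lies left of the other 3.

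An additive limma fit, which looks for a 4OHT effect of the same size in both cell types, called 0 members at an adjusted p of 0.05 and 6 of 11370 genes (0.0528%). At an unadjusted p below 0.05 it picked 6 members, Phc2 higher and Psip1, Mllt3, Aff4, Ell2 and Suz12 lower, which is 13.6% of members against 14.2% of all genes. The same fit with a mean-variance trend called 3 members, Psip1, Aff4 and Suz12, among 598 genes (5.26%), and edgeR on the recovered reads called 2, Psip1 and Suz12, among 492 genes (4.33%). Adjusted p for Suz12 was 0.232 in limma, 0.0117 with the trend and 0.0294 in edgeR, so the call depends on the method.

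By counting error alone, 9.95% of all genes had a 95% interval of the 4OHT to ethanol ratio below 1 in both cell types. Of the 44 compared members 10 had it, which is 22.7%. They were the MLL cofactor Psip1, the elongation genes Mllt3, Mllt10, Aff4 and Ell2, the PAF genes Cdc73, Rtf1 and Leo1, and the PRC2 genes Ezh2 and Suz12. In 3 members (6.82%) the interval lay above 1 in both, Dot1l, Paf1 and Phc2, against 9.19% of all genes. These intervals are exact binomial ones and do not cover variation between colonies. They narrow as reads increase, and members and all genes were not matched for reads.

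**Figure D2:**
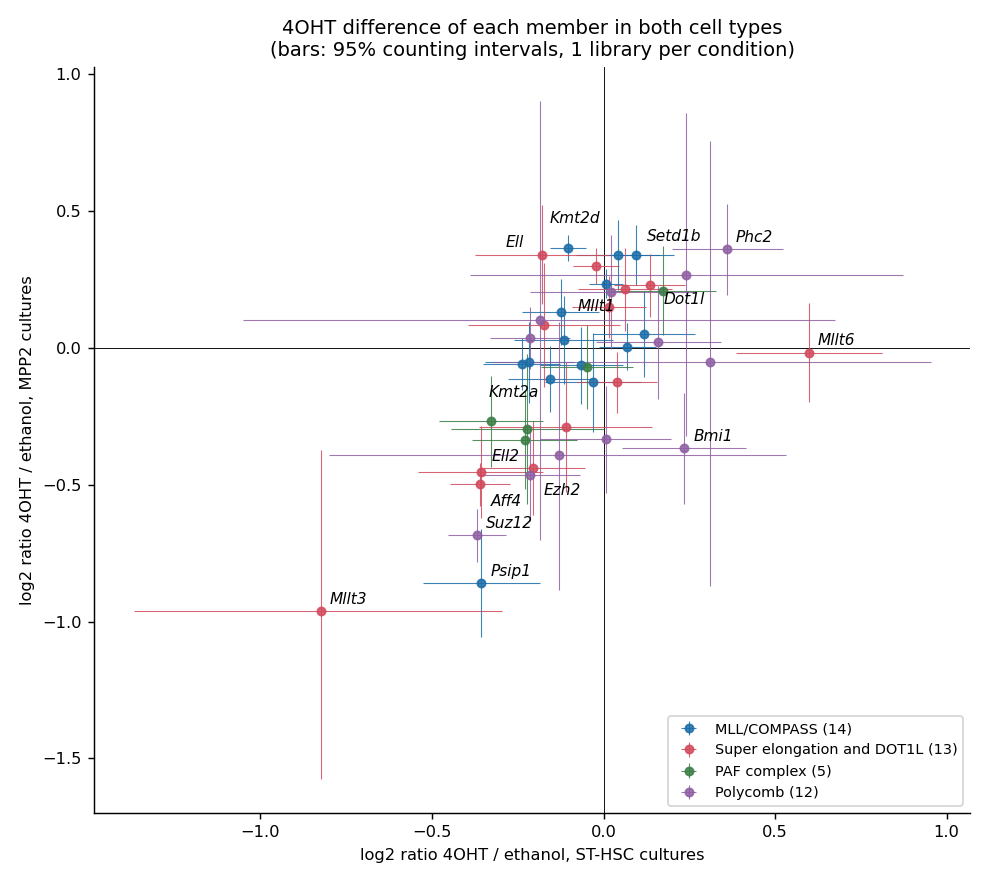
Log2 ratio of 4OHT to ethanol for each of the 44 members in ST-HSC colonies (x axis) and MPP2 colonies (y axis), with 95% counting intervals as bars and colour by complex. Mllt3, Psip1 and Suz12 lie lowest on the MPP2 axis, Mllt6 lies farthest right, and Bmi1 and Kmt2d lie on opposite sides of 0 in the 2 cell types.

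Kmt2a, the source of the front part of the fusion, had 80.3 and 72.1 normalized counts in ST-HSC colonies (ethanol, then 4OHT), and 91.1 and 84.2 in MPP2 colonies. The value with 4OHT divided by that with ethanol was 0.897 for ST-HSC (95% counting interval 0.824 to 0.978) and 0.924 for MPP2 (0.851 to 1.00). Mllt1, the source of the back part, had 60.1 and 62.7 normalized counts in ST-HSC and 50.9 and 59.0 in MPP2 colonies, with ratios of 1.04 (0.949 to 1.15) and 1.16 (1.04 to 1.29). Neither row stood higher with 4OHT by 1.5-fold, and neither passed the limma test. Counts are per gene symbol, and nothing in the labels says how reads of a fusion transcript were counted, so these rows are not a measure of induction.

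Within MLL/COMPASS the widest 4OHT gap was that of Psip1, which encodes LEDGF, the chromatin tether of MLL and menin. It had 45.8 and 35.8 normalized counts in ST-HSC colonies (ethanol, then 4OHT), and 46.1 and 25.4 in MPP2 colonies. The MPP2 library with 4OHT had the lowest value, and the ethanol libraries differed by less than their counting error. The ratio was 0.781 for ST-HSC (0.694 to 0.879) and 0.552 for MPP2 (0.481 to 0.632), with a limma effect of -0.60 on the log2 scale (SE 0.168, adjusted p 0.237). Psip1 lies at chr4:83455680-83486459 on the minus strand (GRCm38), and part of its exons overlaps Snapc3 on the other strand. Of the 31-base words of Psip1, 9.16% also occur in other genes, most often in Gm15773. The use of strand in counting is not stated, so the level of Psip1 is uncertain to that extent.

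Kmt2d, an H3K4 methyltransferase of enhancers, had 423 and 394 normalized counts in ST-HSC colonies (ethanol, then 4OHT), and 470 and 604 in MPP2 colonies. The MPP2 library with 4OHT stood highest. The ratio was 0.930 for ST-HSC (0.897 to 0.965) and 1.29 for MPP2 (1.24 to 1.33). Its paralog Kmt2c had 100.0, 84.7, 144 and 138 normalized counts in the same order, with MPP2 colonies above ST-HSC colonies in both treatments. The level of Kmt2d per kilobase over that of Kmt2a, a pair chosen after values were seen, was 4.38, 4.54, 4.28 and 5.96, again highest in MPP2 with 4OHT.

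Per kilobase of transcript the MLL/COMPASS members ranged from 4.98 to 62.4 normalized counts, and Dpy30, a core subunit, was highest. It had 60.4 and 59.1 normalized counts in ST-HSC colonies (ethanol, then 4OHT), and 40.3 and 37.0 in MPP2 colonies, so that both MPP2 libraries lay below both ST-HSC libraries. Of the 14 members, 10 stayed under 1.5-fold in every comparison of libraries, with 4OHT log2 differences from -0.21 to 0.12 in ST-HSC colonies, and in MPP2 colonies from -0.11 to 0.34. They include the menin gene Men1, the WD40 core subunits Wdr5 and Rbbp5, Ash2l, Cxxc1, Setd1a, Setd1b and Kmt2b. Of the 31-base words of Setd1a, 51.8% also occur in other genes, most often in Gm49388. That gene overlaps Setd1a on the same strand, so the level of Setd1a is uncertain.

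Among the 13 compared elongation genes, Mllt3 (AF9), an ENL paralog, had the lowest level per kilobase, 0.736 on average, and the widest gap with 4OHT. It had 5.98 and 3.38 normalized counts in ST-HSC colonies (ethanol, then 4OHT), from 86 and 47 reads, and 5.63 and 2.89 in MPP2 colonies, from 78 and 36 reads. Both 4OHT libraries lay below both ethanol libraries. The ratio was 0.565 for ST-HSC (0.387 to 0.815) and 0.513 for MPP2 (0.336 to 0.771), and the limma effect was -0.80 (SE 0.129, adjusted p 0.106). Over 10 settings the adjusted p ranged from 0.0566 to 0.225 and never passed. The Mllt1 to Mllt3 ratio per kilobase, a pair chosen after values were seen, was 16.8 and 15.1 in the ethanol libraries. It was higher with 4OHT in both cell types, reaching 34.1 (24.4 to 49.1) in MPP2 colonies. Transcript GC is 59.5% for Mllt1 and 41.4% for Mllt3, and 4OHT differences went with GC. With the GC trend removed the MPP2 log2 differences moved from 0.21 to 0.04 for Mllt1 and from -0.85 to -0.54 for Mllt3. Mllt3 lies at chr4:87769925-88033364 on the minus strand (GRCm38).

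Aff4, a scaffold of the super elongation complex, had 175 and 136 normalized counts in ST-HSC colonies (ethanol, then 4OHT), and 236 and 167 in MPP2 colonies. The 4OHT library was lower in each cell type, with ratios of 0.779 (0.734 to 0.827) and 0.707 (0.669 to 0.748). The limma effect was -0.43 (adjusted p 0.260, 0.0288 with the trend and 0.0529 in edgeR). Its elongation factor partner Ell2 had 40.3, 31.5, 53.2 and 38.8 normalized counts in the same order, and was lower with 4OHT in both, with ratios of 0.780 and 0.730. Aff1, the other scaffold, had 251, 247, 255 and 314, with a ratio of 0.985 in ST-HSC and 1.23 in MPP2 colonies.

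Mllt6 (AF17), a partner of MLL in other leukaemia fusions, had 21.6 and 32.6 normalized counts in ST-HSC colonies (ethanol, then 4OHT), and 38.2 and 37.7 in MPP2 colonies. The ST-HSC library with ethanol was the lowest and the other 3 lay between 32.6 and 38.2. The ratio was 1.51 for ST-HSC (1.31 to 1.75) and 0.988 for MPP2 (0.871 to 1.12). Dot1l had 102, 112, 88.6 and 104 normalized counts in the same order, and was higher with 4OHT in both cell types, with counting intervals of 1.02 to 1.18 and 1.08 to 1.27. Its MPP2 log2 difference moved from 0.23 to 0.07 with the GC trend removed. Cdk9, the kinase of P-TEFb, had the highest level per kilobase of this group, 57.5 on average, and 100.4, 102, 93.3 and 103 normalized counts. Of the 13 compared elongation members, 11 stayed under 1.5-fold in every comparison, among them the cyclin genes Ccnt1 and Ccnt2, Ell, Eaf1 and Mllt10. Their 4OHT log2 differences ran from -0.36 to 0.13 in ST-HSC colonies, and in MPP2 colonies from -0.50 to 0.34. Mllt10 shares 12.7% of its exonic bases with Dnajc1 on the other strand.

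All 5 PAF complex genes were lower in MPP2 than in ST-HSC colonies. Paf1, which names the complex, had the highest level per kilobase of the group and 45.8, 51.6, 44.1 and 50.9 normalized counts. Cdc73, which encodes the tumour suppressor parafibromin, had 54.8, 46.7, 44.9 and 35.5. Ctr9, a scaffold subunit, had 65.9, 63.7, 53.8 and 51.3. Rtf1 ranged from 41.1 to 56.5 and Leo1 from 15.6 to 25.7, each highest in ST-HSC with ethanol and lowest in MPP2 with 4OHT. Cdc73, Rtf1, Ctr9 and Leo1 were lower with 4OHT in both cell types and Paf1 was higher in both. Over all tested genes, 31.4% were lower in both and 30.4% higher in both. Ctr9 stayed within counting error each time, with ratio intervals (ST-HSC first, MPP2 second) of 0.881 to 1.06 and 0.856 to 1.06. The MPP2 log2 4OHT difference of Cdc73 was -0.33, but 0.05 once the GC trend was removed. For all 5 genes the direction between cell types was the same in both treatments. Medians were -0.29 and -0.31 on the log2 scale against -0.04 and -0.02 over all genes. Of all tested genes 54.0% and 51.8% were below 0 in these pairs, and none of the 5 passed 1.5-fold. With the GC trend removed 4 of 5 were below 0 in ethanol and 5 of 5 with 4OHT. Of 7 further genes listed with the PAF complex, 5 were below 0 with ethanol and 4 with 4OHT. With the GC trend removed 4 of these 7 were below 0 in each treatment.

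Among Polycomb genes, Suz12, a core PRC2 subunit, had the highest level per kilobase, 35.7 on average, and the widest gap with 4OHT. It had 190.3 and 147 normalized counts in ST-HSC colonies (ethanol, then 4OHT), and 176 and 109.8 in MPP2 colonies. The order ethanol above 4OHT held in both cell types, with ratios of 0.774 (0.731 to 0.820) and 0.622 (0.582 to 0.665). The limma effect was -0.53 (adjusted p 0.232). Suz12 lies at chr11:79993106-80034123 on the plus strand (GRCm38). Ezh2, the main methyltransferase of PRC2 in cycling cells, had 57.6, 49.6, 53.1 and 38.5 normalized counts, and was lower with 4OHT in both, with ratios of 0.861 and 0.725. Ezh1, its paralog, had 20.7, 21.1, 27.1 and 31.2, and Eed had 33.4, 37.4, 29.6 and 30.0. The Ezh2 to Ezh1 ratio per kilobase, a comparison chosen after values were seen, was 4.19 (3.67 to 4.80) and 3.55 (3.10 to 4.09) in ST-HSC colonies (ethanol, then 4OHT), and 2.95 (2.61 to 3.35) and 1.86 (1.63 to 2.13) in MPP2 colonies. This ratio was lowest in the MPP2 colonies with 4OHT. With the GC trend removed the MPP2 log2 4OHT differences moved from -0.46 to -0.30 for Ezh2 and from 0.20 to 0.14 for Ezh1.

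In PRC1, the ring finger gene Bmi1 had 33.1 and 39.0 normalized counts in ST-HSC colonies (ethanol, then 4OHT), and 35.5 and 27.5 in MPP2 colonies. It was higher with 4OHT in ST-HSC colonies, with a ratio of 1.18 (1.04 to 1.33), and lower in MPP2 colonies, with 0.775 (0.673 to 0.892). Kmt2d, Setd1a and Bmi1 were the 3 of 44 members with counting intervals on opposite sides of 1 in the cell types, as were 5.36% of all genes. With the GC trend removed the MPP2 log2 difference of Bmi1 moved from -0.36 to -0.04, and that of Setd1a turned from 0.13 to -0.03. Of the 31-base words of Bmi1, 28.2% also occur in other genes, most often in Gm5946. Phc2, a polyhomeotic subunit, had 39.4, 50.6, 40.9 and 52.5, and was higher with 4OHT in both cell types, with ratios of 1.28 in each. With the GC trend removed the log2 differences of Phc2 moved from 0.36 to 0.31 in ST-HSC and from 0.36 to 0.15 in MPP2 colonies. Its paralog Phc1 was low, with 2.99 and 2.73 normalized counts from 43 and 38 reads in ST-HSC colonies, and 6.42 and 4.89 from 89 and 61 reads in MPP2 colonies. Cbx2, a chromodomain subunit, had 2.78, 3.45, 2.16 and 2.09. The other Polycomb members, Jarid2, Rnf2, Cbx7 and Cbx8, stayed under 1.5-fold in every comparison. Cbx7 and Cbx8 were low throughout, at 1.65 to 4.25 normalized counts.

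Fewer members than genes in general passed 1.5-fold between cell types. With ethanol 2 members, Mllt6 and Phc1, were at least 1.5-fold higher in MPP2 colonies, against 12.6% of all genes, and 0 were lower, against 5.53%. With 4OHT 3 were higher, Kmt2c, Kmt2d and Phc1, against 13.6%, and 2 were lower, Dpy30 and Cbx2, against 10.7%. The MPP2 to ST-HSC ratio of Phc1 was 2.15 (1.48 to 3.17) with ethanol and 1.79 (1.18 to 2.76) with 4OHT, that of Kmt2c 1.44 (1.35 to 1.54) and 1.63 (1.51 to 1.76), and that of Dpy30 0.667 (0.599 to 0.743) and 0.625 (0.557 to 0.702). Kmt2d reached 1.54 (1.48 to 1.59) with 4OHT and fell short of 1.5-fold with the GC trend removed. Cbx2 was at 0.605 with 4OHT, with a counting interval that reached 0.994, and Mllt6 at 1.77 (1.54 to 2.04) with ethanol. Limma, fitted over both treatments, called 3 members, 6.82% against 15.2% of all genes. Phc1 had a log2 effect of 0.86 (SE 0.138, adjusted p 0.0271), Kmt2c of 0.61 (SE 0.133, adjusted p 0.0445) and Dpy30 of -0.62 (SE 0.128, adjusted p 0.0410). Kmt2c was called in 6 of 11 settings and Dpy30 in 8 of 11, with a highest adjusted p of 0.0816 and 0.0769. Phc1 was called in 9 of 10, and missed with 0.0585 when no filter was used. Across members the cell type difference also went with log2 transcript length. Pearson r was 0.35 with ethanol and 0.50 with 4OHT, against 0.10 and 0.13 over all genes. The transcripts of Kmt2c, Phc1 and Dpy30 have 14967, 4213 and 789 bases, and that of Kmt2d has 19823. The part of length in these differences was not tested.

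**Figure D3:**
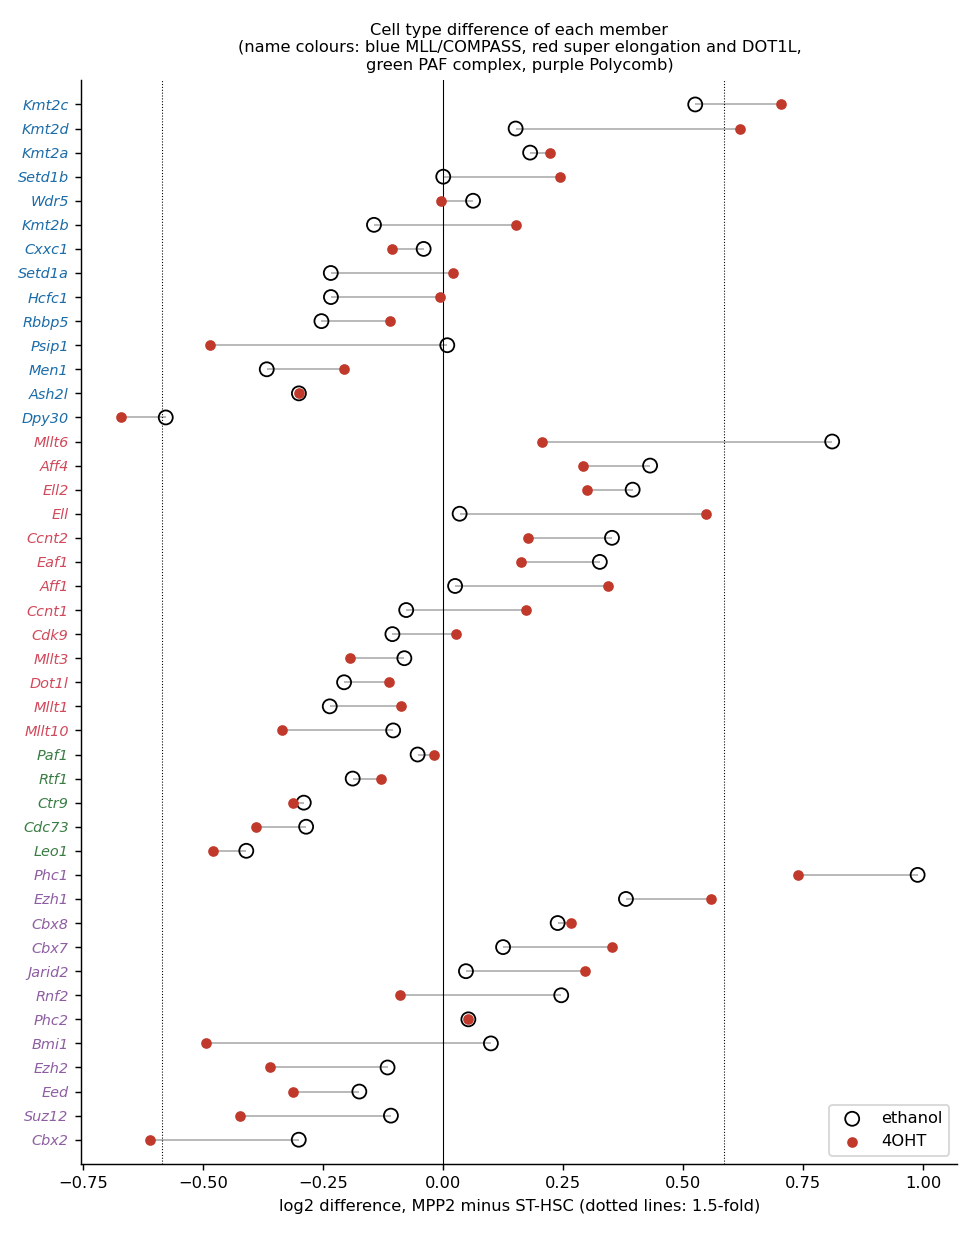
Log2 difference of MPP2 minus ST-HSC colonies (x axis) for each of the 44 compared members (rows, names coloured by complex), with ethanol as open circles, 4OHT as filled circles and dotted lines at 1.5-fold. All 5 PAF complex genes lie left of 0 in both treatments, and Phc1 is the member past the right line in both.

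The members' 4OHT differences went with a feature that did not enter their choice, the GC content of the transcript. Across the 44 members the log2 4OHT difference followed transcript GC with Pearson r 0.52 and Spearman rho 0.53 in ST-HSC colonies, and 0.76 and 0.79 in MPP2 colonies. Over 10937 genes with a GC value r was 0.12 and 0.38 and rho 0.19 and 0.49. The slope per 10 GC points was 0.18 and 0.37 log2 units over members, and 0.07 and 0.26 over all genes. These correlations are across genes, which share their libraries and are not independent replicates. At the median GC of 49.9%, 17 of 21 members below it were lower with 4OHT in each cell type, against 58.2% and 70.2% of all genes below it. Of the 23 members above it, 14 and 17 were higher, close to the shares of all genes above it, 3104 and 3834 of 5469. Of the 10 members whose counting interval lay below 1 in both cell types 9 were below the median, and the 3 above 1 were all above it. When the GC trend of all genes was subtracted in 20 bins, the MPP2 log2 difference of Suz12 moved from -0.68 to -0.36, that of Psip1 from -0.85 to -0.60 and that of Mllt3 from -0.85 to -0.54. After this 1 member remained at least 1.5-fold different with 4OHT in MPP2 colonies, Psip1, and 1 in ST-HSC colonies, Mllt3 at -0.63. The sign of Cdc73 in MPP2 colonies turned, from -0.33 to 0.05.

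**Figure D4:**
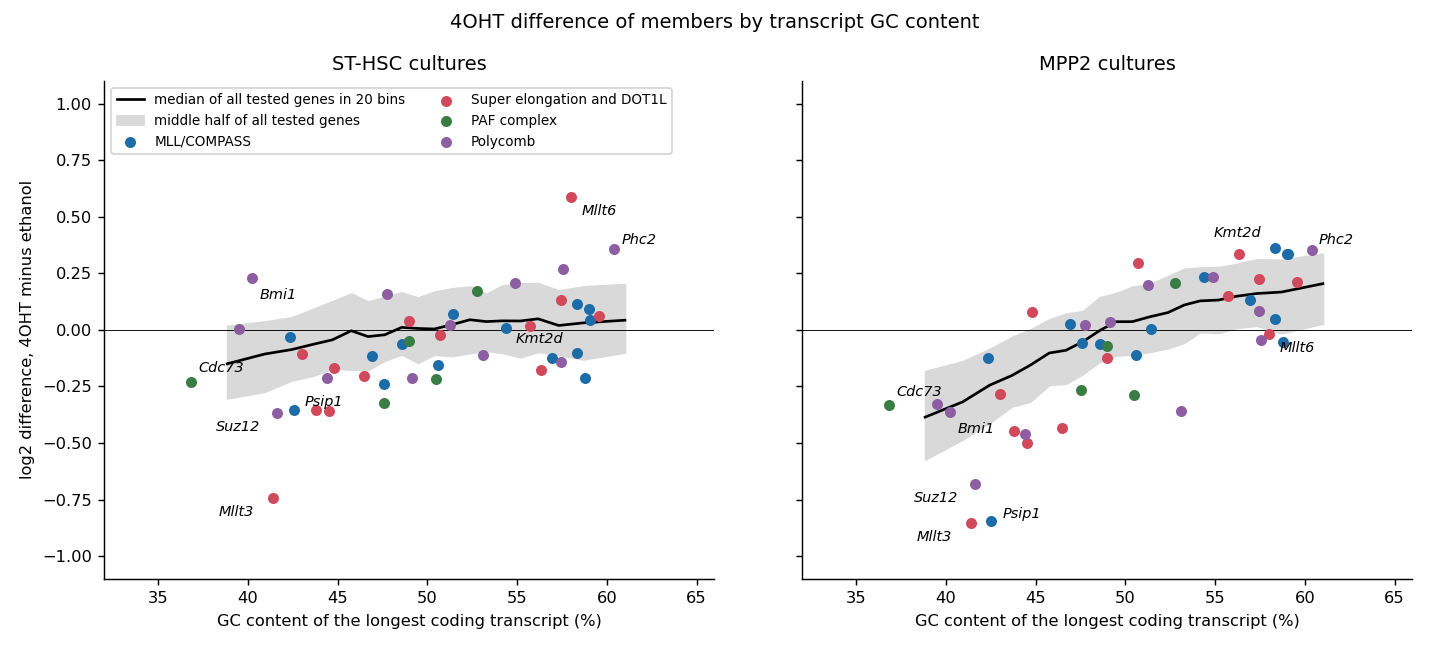
4OHT minus ethanol log2 difference (y axis) against GC content of the longest coding transcript (x axis, %) for each member, in ST-HSC and MPP2 colonies, with the median (line) and middle 50% (band) of all tested genes in 20 bins. Members low in GC lie lower, most clearly in MPP2 colonies, and the line of all genes slopes the same way.

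Beyond the members, 76 further genes of the same complexes were listed, of which 73 were compared. On the log2 scale after adding 0.5, none was 2-fold different with 4OHT, against 2.65% and 3.02% of all genes. Without the added constant Aff3, which is low, had a ratio of 2.07 in ST-HSC colonies, from 21 and 42 reads. In ST-HSC colonies 57 of the 73 were below 0, against 50.6% of all genes, with a median of -0.11, and in MPP2 colonies 39 of 73, against 50.2%, with a median of -0.03. In ST-HSC colonies 1 was at least 1.5-fold higher, against 5.28%, and 2 were lower, against 2.89%, and in MPP2 colonies 0 were higher and 1 was lower, against 4.67% and 6.09%.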

How the data were processed

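The deposited table holds 14323 gene symbols and 1 column of normalized counts per library. The submitters' processing notes name edgeR, RSEM, Bowtie2, Trimmomatic 0.36 and the mm10 build, with no role, order or annotation. The deposited signal, normalized counts in name, came from whole reads: 100% of 57292 values were whole multiples of 1 step per column within 1e-06. Per the labels' protocols, rRNA was depleted and libraries were strand-specific. Gene positions, GC and length came from GENCODE M21 on GRCm38, which is the mm10 assembly, using the longest coding transcript.

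Log2 values were taken after adding 0.5 to the normalized counts, which shrinks differences of low genes, and ratios were taken without it. Genes with a mean of at least 1 were compared. A member was counted at 1.5-fold or more. Limma 3.58.1 in R 4.3.3 was fitted to cell type and treatment with Benjamini-Hochberg adjustment at 0.05, and tested on simulated data. Counting intervals are exact conditional binomial at 95% and cover counting error only. With 1 library per group the p-values measure only the spread left in the additive fit. Alternatives were other added constants, other filters, column totals, median-of-ratios size factors, GC removal, limma with a trend and edgeR 4.0.16 on the recovered reads. Named genes followed a rule that took members past 1.5-fold in any comparison, Kmt2a, Mllt1 and the highest member per kilobase of each group. Aff1, Aff4, Ell2, Dot1l, Ezh1, Ezh2, Eed, Bmi1, Phc2, Cbx7, Cbx8 and the other PAF genes, with their values, were added after the values were seen. The members and gene lists were chosen with earlier results of these data known. Scripts used scipy 1.17.1, pandas 2.3.3 and numpy 2.4.6 in Python 3.11.15.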

Additional observations from a re-analysis of the deposited data

Results flagged for a closer look

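In 3 of 44 members the 4OHT differences lay on opposite sides of 0 in the 2 cell types, with counting intervals that left out 1 in both. Of all tested genes 5.36% show this pattern. The difference between cell types was not tested. Kmt2d was lower with 4OHT in ST-HSC and higher in MPP2 colonies, and its MPP2 difference exceeded its ST-HSC difference by 0.47 on the log2 scale. With the GC trend removed its differences were -0.14 in ST-HSC and 0.20 in MPP2 colonies. Setd1a did the same with 0.26, but its MPP2 difference changed sign to -0.03 when the GC trend was removed. Bmi1 was higher in ST-HSC and lower in MPP2 colonies, with a value of -0.59, and its MPP2 difference was -0.04 with the GC trend removed.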

How the results depend on the processing

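Each result was recomputed under the alternatives of the methods. The 3 members that limma called for cell type, Phc1, Kmt2c and Dpy30, kept their direction in every setting. Some 4OHT differences did not. With the GC trend removed the MPP2 log2 difference turned from -0.33 to 0.05 for Cdc73 and from -0.33 to 0.06 for Rnf2. That of Setd1a turned from 0.13 to -0.03, and other members with small differences also changed sign. Of the 1.5-fold counts of members, those in ST-HSC cultures with 4OHT were 0 higher and 0 lower with an added constant of 2, 0 lower with a mean of at least 5, and 0 higher with the GC trend removed. The MPP2 count of lower members was 1 with the GC trend removed. The count higher in MPP2 with ethanol was 1 with a mean of at least 5, and the count lower was 1 with column totals without Rn45s. The count lower with 4OHT between cell types was 1 with an added constant of 2, a mean of at least 5 and the GC trend removed. The shared 4OHT effect called 6 genes as reported, 0 with an added constant of 0.1, without a filter, with each of the 3 scalings and with the GC trend removed, 228 with a constant of 2, 230 with a mean of at least 5, 598 with the trend and 492 in edgeR. It called 3 and 2 members with the trend and edgeR. The shared cell type effect called 1727 genes, and 852 with a constant of 0.1, 2890 with 2, 559 without a filter, 2719 with a mean of at least 5, 3761 with the trend and 3462 in edgeR. It called 3 members, and 1, 5, 0, 11 and 9 with constants of 0.1 and 2, no filter, the trend and edgeR. The cause of these changes was not tested. No other scaling moved the median of all genes by 0.1. No paired analysis was possible because each group has 1 library and the labels carry no replicate numbers. With 1 library per group, variation between cultures is unknown, and low members such as Mllt3 and Phc1 rest on 36 to 89 reads.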

Other observations

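Some further genes of the same complexes, named after their values were seen, moved at least 1.5-fold with 4OHT in 1 cell type. Aff3, a paralog of Aff4, had 1.46 and 3.02 normalized counts in ST-HSC colonies without and with 4OHT and 3.46 and 2.89 in MPP2 colonies. Bod1l, which binds the SETD1A complex, had 52.1 and 31.8 in ST-HSC colonies and 46.8 and 34.0 in MPP2 colonies, lower in each. Hexim2, an inhibitor of P-TEFb, had 4.03 and 2.30, and 3.82 and 2.89. Phc3, a polyhomeotic subunit, had 46.0 and 41.1, and 58.9 and 38.4. The H3K27 demethylase gene Kdm6a differed by cell type, with 50.6 and 41.1 in ST-HSC colonies and 94.3 and 72.0 in MPP2 colonies, both MPP2 libraries above both ST-HSC libraries. Cbx6 differed the other way, with 35.2 and 28.4 against 24.5 and 16.6. With ethanol 5 of the 73 compared were at least 1.5-fold higher in MPP2 colonies and 2 lower, against 12.6% and 5.53% of all genes. With 4OHT 6 were higher and 3 lower, against 13.6% and 10.7%. At least 2-fold, 2 were higher with ethanol, Aff3 among them, and with 4OHT 1 was higher and 1 lower. Kdm6a was not 2-fold different.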
